A study of Homo sapiens with 6 samples.

Results

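The nuclear-encoded subunits of the mitochondrial respiratory chain and ATP synthase were compared between drug-tolerant persisters (DTPs) and parental PC9 cells. Members were all genes whose symbol has the stem of complex I (NDUFA, NDUFB, NDUFC, NDUFS, NDUFV), complex II (SDHA to SDHD), complex III (UQCR), complex IV (COX4 to COX8) or complex V (ATP5), provided that a probe set was assigned to that gene alone. The rule took 76 of the 19775 genes on the array, with 150 probe sets, and used no measured value. Complex I held 32 of them, complex II 3, complex III 6, complex IV 17 and complex V 18. PC9 cells derive from a non-small cell lung cancer and carry an activating mutation of the EGFR kinase, and erlotinib inhibits that kinase. Both groups were a PC9 line carrying a GFP vector, and each had 3 Affymetrix U133 Plus 2.0 arrays. The parental cells received DMSO, were 100% confluent and were harvested on day 3, whereas DTPs were taken on day 10, after 2 µM erlotinib for 9 days that began at 80% confluency. The series text and the study's methods give 9 days for DMSO too, so the duration of the DMSO treatment is uncertain. Drug, time in culture and cell density therefore cannot be told apart. The methods describe replicates in general as biological, but the labels do not say what the 3 arrays of a group are, so p-values measure only the spread between arrays, which may be technical.

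The respiratory chain passes electrons from NADH (complex I) and succinate (complex II) through ubiquinone, complex III and cytochrome c to oxygen at complex IV, and complexes I, III and IV pump protons across the inner mitochondrial membrane. ATP synthase, complex V, lets the protons flow back and makes ATP. Most subunits are encoded in the nucleus, and several of complex IV come as pairs of isoforms that differ between tissues. Mitochondrially encoded subunits were not analysed here, nor were NDUFC2, NDUFS5, NDUFS8, SDHB, UQCRFS1 and UQCRH, which had no probe set of their own under the rule. NDUFA4 is listed under its current symbol COXFA4 and was therefore no member. Its values are given with complex IV.

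Promoters of nuclear genes of oxidative phosphorylation often carry sites for the transcription factors NRF1, GABP and YY1. The RefSeq promoter windows (GRCh38.p14, 250 bases before to 50 after the transcription start) of 6 members on which the results below turn are shown, 5′ to 3′ on the strand of the gene. They are the 2 isoform pairs of complex IV whose difference in level changed most. The others are the gene of complex V whose probe sets disagreed and the subunit of complex I with the largest decrease. Capitals mark matches, on either strand, to GCGCATGC (core of the NRF1 motif), CCGGAAG (core bound by GABP and other ETS factors) and AAGATGGC (core of the YY1 motif). The windows are COX7B2 at chr4:46909196-46909495 (minus strand), COX7B at chrX:77899218-77899517 (plus strand), COX6B2 at chr19:55354670-55354969 (minus strand), COX6B1 at chr19:35648073-35648372 (plus strand), ATP5F1C at chr10:7787927-7788226 (plus strand) and NDUFS7 at chr19:1383657-1383956 (plus strand).
COX7B2: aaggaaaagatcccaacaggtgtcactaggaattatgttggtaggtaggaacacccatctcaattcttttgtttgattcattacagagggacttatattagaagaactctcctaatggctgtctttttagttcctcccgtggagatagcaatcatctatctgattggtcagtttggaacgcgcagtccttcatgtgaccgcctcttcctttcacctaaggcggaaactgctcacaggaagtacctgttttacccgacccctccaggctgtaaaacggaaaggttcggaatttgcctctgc
COX7B: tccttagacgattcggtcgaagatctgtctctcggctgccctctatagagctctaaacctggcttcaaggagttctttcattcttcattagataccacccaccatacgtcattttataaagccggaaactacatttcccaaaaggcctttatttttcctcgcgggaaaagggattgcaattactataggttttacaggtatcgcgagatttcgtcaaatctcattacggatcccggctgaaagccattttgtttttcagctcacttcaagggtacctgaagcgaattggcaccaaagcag
COX6B2: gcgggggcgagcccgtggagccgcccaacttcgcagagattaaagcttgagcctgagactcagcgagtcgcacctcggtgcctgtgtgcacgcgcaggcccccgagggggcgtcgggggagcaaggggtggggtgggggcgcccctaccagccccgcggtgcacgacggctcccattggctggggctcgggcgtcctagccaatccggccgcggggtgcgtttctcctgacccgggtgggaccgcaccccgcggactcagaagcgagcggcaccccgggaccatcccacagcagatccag
COX6B1: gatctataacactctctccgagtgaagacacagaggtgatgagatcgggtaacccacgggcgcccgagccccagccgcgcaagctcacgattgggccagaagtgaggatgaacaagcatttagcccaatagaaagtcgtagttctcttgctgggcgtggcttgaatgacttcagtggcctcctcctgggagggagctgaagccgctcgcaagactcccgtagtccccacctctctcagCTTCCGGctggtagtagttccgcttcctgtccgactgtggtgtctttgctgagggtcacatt
ATP5F1C: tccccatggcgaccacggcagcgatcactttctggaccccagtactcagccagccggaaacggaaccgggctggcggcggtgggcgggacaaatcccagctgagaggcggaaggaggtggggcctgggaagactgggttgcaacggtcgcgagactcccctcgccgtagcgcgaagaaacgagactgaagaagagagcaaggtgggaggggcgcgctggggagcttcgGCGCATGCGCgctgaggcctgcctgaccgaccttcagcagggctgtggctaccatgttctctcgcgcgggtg
NDUFS7: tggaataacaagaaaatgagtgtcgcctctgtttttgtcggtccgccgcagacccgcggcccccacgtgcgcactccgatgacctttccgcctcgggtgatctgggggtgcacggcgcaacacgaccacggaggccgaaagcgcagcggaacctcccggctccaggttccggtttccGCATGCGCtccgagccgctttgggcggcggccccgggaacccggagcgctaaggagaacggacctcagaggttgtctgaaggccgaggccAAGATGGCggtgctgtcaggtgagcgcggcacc
The COX7B2, COX7B and COX6B2 windows held none of the 3 motifs. That of COX6B1 held 1 GABP match, that of NDUFS7 held 1 NRF1 and 1 YY1 match, and that of ATP5F1C held 2 overlapping NRF1 matches on opposite strands. Windows were found for 65 of the 76 members, 78 windows in all because some genes have several, which may overlap. The NRF1 core occurred in 17.9% of them, against 3.05% of all 35116 windows of the table and 3.74% of the 22199 windows of protein-coding genes. The GABP core occurred in 25.6%, against 10.3% and 12.8%, and the YY1 core in 15.4%, against 2.89% and 3.53%. At least 1 of the 3 was found in 9 of 20 windows of members that rose in DTPs, 6 of 17 of those that fell and 22 of 41 of the rest.

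Most subunits differed little between the groups. All values below are log2 probe set summaries, with 1 probe set per gene, and differences are DTP minus parental on the same log2 scale. A gene rose or fell where its adjusted p from limma over all 19775 genes was under 0.05, and it was called where its fold also exceeded 1.5. Of the 76 members, 20 rose (26.3%), beside 20.4% of all genes, and 11 fell (14.5%), beside 24.0% of all genes. The other 45 did not pass the test. The share that passed was 50% in complex I, 33.3% in complex II and 16.7% in complex III. It was 41.2% in complex IV and 33.3% in complex V, beside 44.5% of all genes. The members called were COX7B2 and ATP5F1C on the higher side, where 8.08% of all genes were called, and COX6B2 and COX7A2L on the lower side, where 6.13% were. These 4 are 5.26% of the members, beside 14.2% of all genes called in either direction. The changes ran from -0.77 for COX6B2 to 0.98 for COX7B2, with a median of 0.07 (0.03 without DTP array 3), beside -0.05 over all genes, and standard errors lay between 0.06 and 0.11. For 64 members the 95% interval of the change lay wholly inside 1.5-fold. The 3 DTP arrays were all above the 3 parental arrays for 30 members (23.9% of all genes) and all below them for 18 (29.8% of all genes), and the groups overlapped for 28. In bulk RNA, fewer cells of a kind and less RNA per cell cannot be told apart, nor can survival of cells that already differed and change within cells.

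**Figure D1:**
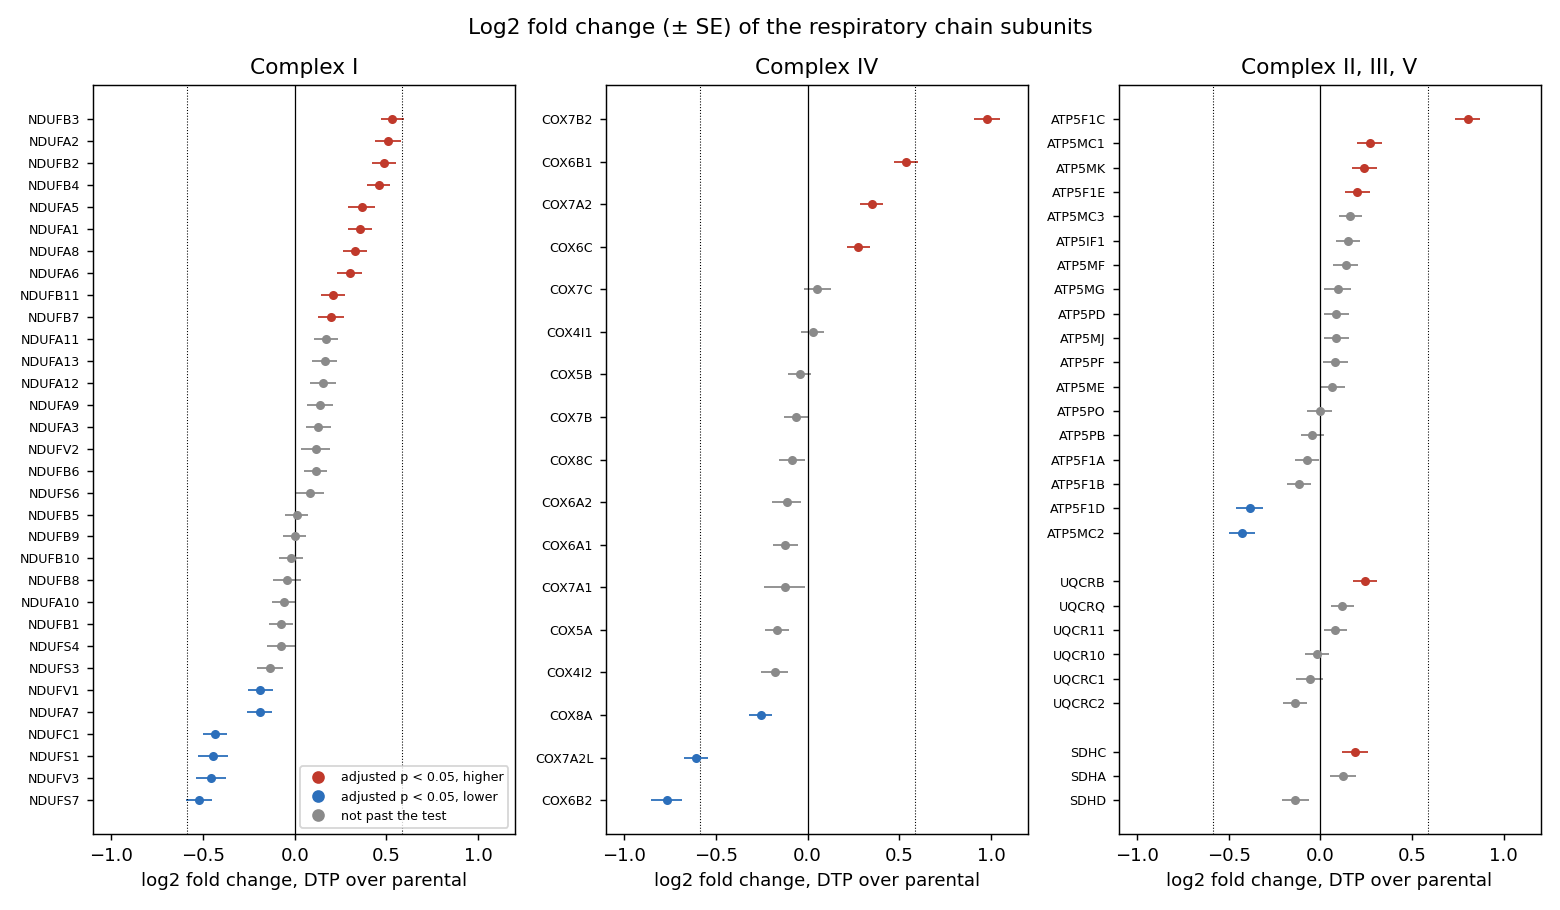
Log2 fold change of each of the 76 members, DTP over parental (x axis), with bars of ± 1 SE from limma (3 arrays per group), by complex. Dotted lines mark 1.5-fold. COX7B2 and ATP5F1C lie beyond the right line, COX6B2 and COX7A2L beyond the left, and the other 72 between them.

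Scaling affects all of these counts. The deposited values assume that most genes do not shift together. The mean of 52 cytosolic ribosomal protein genes differed by -0.12 between the groups and that of 18 hybridization spike-in probe sets by -0.15, so centring each array on either moved all differences up by as much. The median of all genes was then 0.07 or 0.10 and that of the members 0.19 or 0.22, so their distance from all genes stayed the same. With these centrings 39 or 25 members rose, beside 29.2% or 24.1% of all genes, and 8 or 5 fell, beside 14.3% or 9.38%. Over all genes 2114 or 2290 were then called higher and 868 or 795 lower, against 1597 and 1212 on the deposited scale.

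In complex I, 10 of 32 members rose, 6 fell and 16 did not pass, with a median change of 0.11 (0.07 without DTP array 3). With centring on ribosomal protein genes 18 rose and 4 fell, and on spike-ins 13 and 3. The members that rose were all accessory subunits of the NDUFA and NDUFB series, which surround the catalytic core and do not carry electrons. Of these 23 members 10 rose and 1, NDUFA7, fell (median 0.16), or 16 and 13 rose and none fell with the 2 centrings. Of the 8 members of the NDUFS and NDUFV series, which include the core subunits that carry flavin and iron-sulphur clusters, none rose and 4 fell (median -0.16). With centring on ribosomal protein genes 2 of these 8 rose and 3 fell (median -0.046), and with centring on spike-ins none rose and 3 fell (median -0.015). On the deposited scale the median of the 8 lay below the parental mean in each DTP array, by -0.24, -0.18 and -0.07 in arrays 1, 2 and 3, so array 3 was the least shifted.

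NDUFS7, the core subunit that holds the last iron-sulphur cluster before ubiquinone, fell the most. It measured 10.54, 10.64 and 10.61 in the parental arrays and 10.04, 10.02 and 10.17 in the DTP arrays. The groups did not overlap, and the change was -0.52 ± 0.07 (SE, n = 3 per group, limma adjusted p = 5.15e-05). A second, dimmer probe set of NDUFS7 gave 0.11 ± 0.09, and the mean of both gave -0.21. NDUFS1, the largest core subunit, which carries several iron-sulphur clusters of the NADH-oxidising module, measured 10.77, 10.78 and 10.78 in parental cells and 10.24, 10.24 and 10.52 in DTPs. Its change was -0.45 ± 0.08 (limma adjusted p = 6.76e-04), with DTP array 3 closest to the parental arrays. All 5 probe sets of NDUFS1 gave a negative change, from -0.45 to -0.14, and 3 of them fell over all probe sets. NDUFV1, the subunit that binds NADH and flavin, measured 12.44, 12.45 and 12.44 in parental cells and 12.19, 12.23 and 12.34 in DTPs, a change of -0.19 ± 0.07 (limma adjusted p = 0.0386). That call was among the weakest, and the adjusted p rose to 0.059 with the replicate number as a block. NDUFV3, an accessory subunit of the same module, measured 10.17, 10.17 and 10.30 in parental cells and 9.68, 9.67 and 9.93 in DTPs, and both of its probe sets fell.

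The remaining core subunits measured did not pass. NDUFS3 measured 11.41 to 11.48 in parental cells and 11.22 to 11.41 in DTPs, with a change of -0.14 ± 0.07 (limma adjusted p = 0.14). NDUFV2, which also carries an iron-sulphur cluster, had a positive change of 0.11 ± 0.08 (limma adjusted p = 0.259), and its groups overlapped. The accessory subunits NDUFS4 and NDUFS6 overlapped between the groups as well.

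Among the accessory subunits, NDUFB3 measured 10.68, 10.65 and 10.64 in the parental arrays and 11.16, 11.16 and 11.24 in the DTP arrays. Its rise of 0.53 ± 0.06 (limma adjusted p = 2.05e-05) was the largest in complex I. NDUFA2, of the matrix arm, measured 10.95, 10.85 and 10.93 in parental cells and 11.42, 11.35 and 11.49 in DTPs, a rise of 0.51 ± 0.07 (limma adjusted p = 5.63e-05). That rise was carried by 1 of its 3 probe sets, since the other 2, dimmer ones gave -0.0049 and -0.12. NDUFB2, of the membrane arm like NDUFB3, measured 11.89, 11.85 and 11.90 in parental cells and 12.32, 12.36 and 12.42 in DTPs, and all 3 of its probe sets rose, by 0.41 to 0.52. For NDUFB4 the values were 12.24, 12.19 and 12.26 against 12.67, 12.72 and 12.67, and a second, dimmer probe set gave -0.04 ± 0.08. The other members that rose were NDUFA5, NDUFA1, NDUFA8, NDUFA6, NDUFB11 and NDUFB7, by 0.37 down to 0.20. A second, dimmer probe set of NDUFB7 gave -0.15 ± 0.11. Those that fell were NDUFC1, a small subunit of the membrane arm (-0.44 ± 0.07), and NDUFA7, of the matrix arm (-0.19 ± 0.07). Each had a second, dimmer probe set, at 0.22 ± 0.10 for NDUFC1 and 0.14 ± 0.09 for NDUFA7. Complex I thus had members on both sides of the parental level in all 3 DTP arrays, and none of its 32 members was called at 1.5-fold on the deposited scale. With centring on ribosomal protein genes NDUFA2, NDUFB2 and NDUFB3 were called higher, and with centring on spike-ins NDUFB4 as well.

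**Figure D2:**
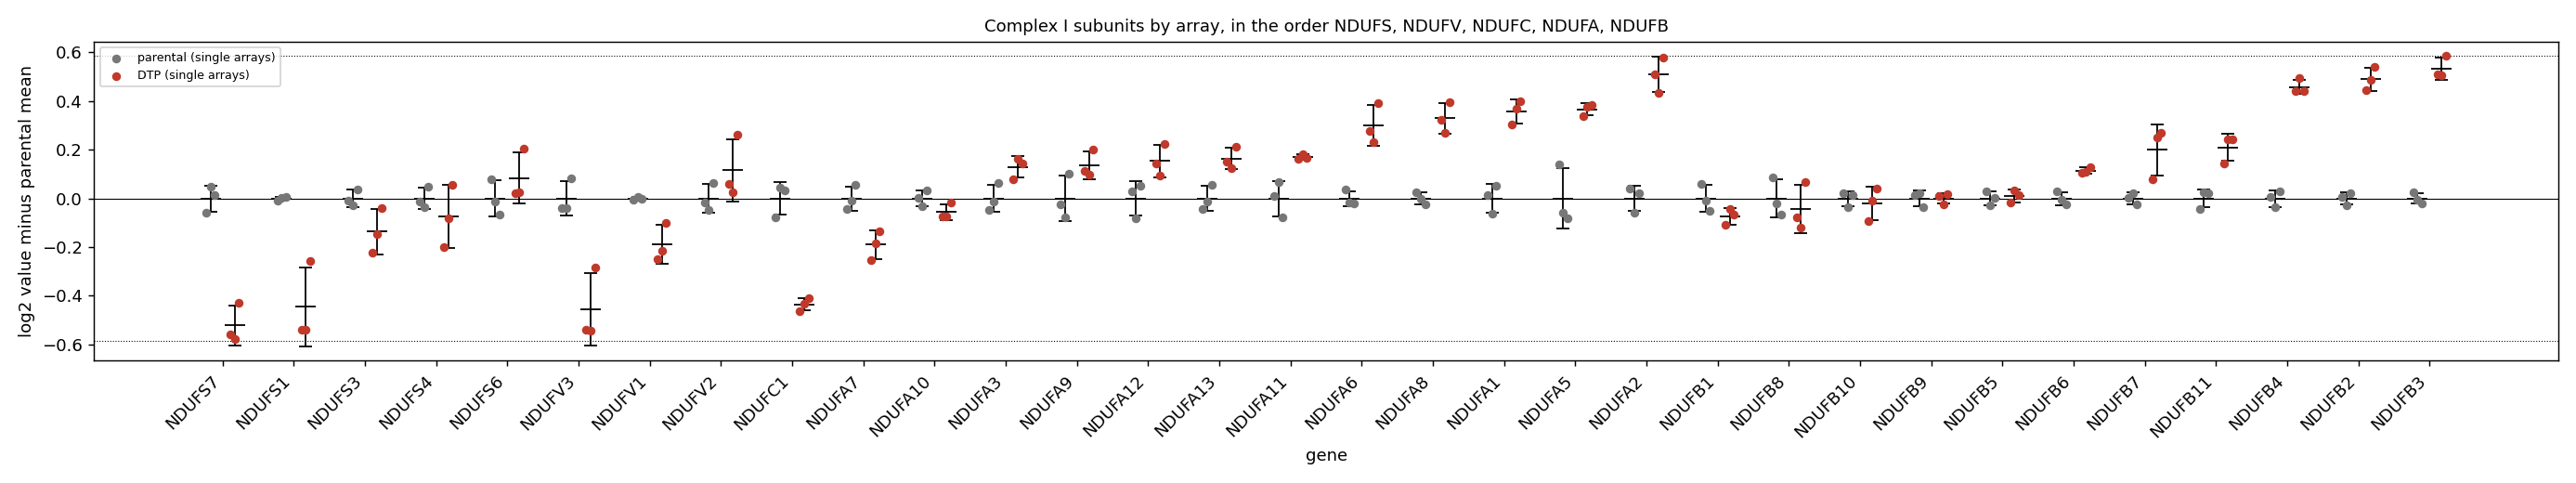
Single-array log2 values of the 32 complex I members minus the parental mean of the gene (y axis), grouped as NDUFS, NDUFV, NDUFC, NDUFA and NDUFB. Horizontal bars are group means with ± 1 SD (n = 3), and dotted lines mark 1.5-fold. The 4 NDUFS and NDUFV members that fell have all DTP points below their parental points, and the 10 that rose lie in the NDUFA and NDUFB series.

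Complex II oxidises succinate and is at once an enzyme of the tricarboxylic acid cycle. SDHC, one of the subunits that anchor it in the membrane, measured 11.21, 11.10 and 11.12 in parental cells and 11.27, 11.34 and 11.40 in DTPs. It passed narrowly, with a change of 0.19 ± 0.07 (limma adjusted p = 0.0412), and none of its 7 probe sets passed when adjusted over all probe sets. SDHD, the other membrane anchor, measured 12.69, 12.57 and 12.56 against 12.37, 12.48 and 12.57, a change of -0.14 ± 0.07 (limma adjusted p = 0.159). SDHA, the flavoprotein that binds succinate, measured 11.32, 11.17 and 11.25 against 11.31, 11.35 and 11.44, a change of 0.12 ± 0.07 (limma adjusted p = 0.184). For SDHD and SDHA the groups overlapped.

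In complex III, 1 of 6 members rose and none fell. UQCRB, a subunit near the ubiquinone-binding site, measured 13.01, 12.96 and 12.92 in parental cells and 13.15, 13.24 and 13.23 in DTPs, a rise of 0.24 ± 0.07 (limma adjusted p = 0.00929), and 3 of its 4 probe sets rose. The core proteins UQCRC1 and UQCRC2 changed by -0.06 ± 0.07 and -0.14 ± 0.07 and did not pass, nor did UQCR10, UQCR11 and UQCRQ, which lay between -0.02 and 0.12.

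Complex IV held 3 of the 4 members called, that is 3 of its 17 members, beside 14.2% of all genes called in either direction. Beside 20.4% of all genes that rose and 24.0% that fell, 4 of its 17 members rose, 3 fell and 10 did not pass. Its median was -0.08, and -0.07 with COXFA4 counted in, but 0.03 with centring on ribosomal protein genes and 0.06 with centring on spike-ins. COXFA4 itself measured 12.54, 12.46 and 12.49 in parental cells and 12.65, 12.67 and 12.65 in DTPs, a difference of 0.15 ± 0.06 (limma adjusted p = 0.0688), with no overlap between the groups.

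COX7B2, an isoform known mainly from testis, had the largest change of all members. It measured 10.05, 9.99 and 10.03 in the parental arrays and 10.92, 11.00 and 11.10 in the DTP arrays. Every DTP array was above every parental array, and the rise of 0.98 ± 0.07 was 1.97-fold (limma adjusted p = 1.74e-07). Its widely expressed counterpart COX7B measured 12.36, 12.29 and 12.33 against 12.21, 12.26 and 12.32, and the groups overlapped (-0.06 ± 0.07). COX6B2, another isoform of testis, went the other way. It measured 9.12, 9.40 and 9.38 in parental cells and 8.45, 8.52 and 8.62 in DTPs, a fall of -0.77 ± 0.09 or 1.70-fold (limma adjusted p = 1.05e-05). Its counterpart COX6B1, which helps to join the monomers of the complex, measured 11.75, 11.72 and 11.70 in parental cells and 12.22, 12.28 and 12.28 in DTPs, a rise of 0.54 ± 0.06 (limma adjusted p = 1.75e-05). The testis isoform of one pair therefore rose while its partner did not pass the test (95% interval -0.21 to 0.08), and in the other pair both isoforms changed, in opposite directions.

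COX7A2L, which is related to COX7A2 and known for linking complexes III and IV into supercomplexes, measured 12.98 in all 3 parental arrays and 12.38, 12.31 and 12.43 in the DTP arrays. The fall of -0.61 ± 0.07 was 1.52-fold (limma adjusted p = 7.78e-06), just past the fold minimum. Without DTP array 2, with either centring or with cyclic loess it dropped below 1.5-fold, at -0.57, -0.49 (ribosomal protein genes), -0.46 (spike-ins) and -0.55, and COX6B2 alone was called lower. COX7A2, the widely expressed isoform of subunit VIIa, rose from 12.51, 12.49 and 12.47 to 12.84, 12.81 and 12.87, by 0.35 ± 0.06 (limma adjusted p = 6.02e-04). COX7A1, its isoform of heart and muscle, was dim, under the array-wide median of 7.29 in both groups, at 5.83 to 6.20 in parental cells and 5.73 to 6.08 in DTPs. COX6C rose by 0.28 ± 0.06, and COX8A fell by 0.26 on the log2 scale, from 13.48 in each parental array to 13.20, 13.23 and 13.25. Of 16 alternative settings, COX8A passed the test in 14, and its change ranged from -0.27 to -0.11.

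The other isoforms moved less. COX4I1, the common form of subunit IV, measured 12.66, 12.62 and 12.66 against 12.63, 12.69 and 12.70. COX4I2, known from lung and from hypoxic cells, measured 7.76, 7.85 and 7.93 against 7.58, 7.69 and 7.74, a difference of -0.18 ± 0.07 (limma adjusted p = 0.07). COX6A1 and its muscle isoform COX6A2 differed by -0.12 ± 0.07 and -0.11 ± 0.08, and COX8C, the testis isoform of subunit VIII, lay at 3.97 to 4.20 in all arrays and was likewise under the array-wide median. The change of one isoform minus that of its partner was compared in all 6 pairs with an exact permutation test over arrays (two-sided), which cannot go below p = 0.10 with 3 against 3. The difference was 1.04 for COX7B2 minus COX7B, -1.31 for COX6B2 minus COX6B1, -0.47 for COX7A1 minus COX7A2 and -0.21 for COX4I2 minus COX4I1, each at that smallest p (0.15 after Benjamini-Hochberg adjustment over the 6 pairs). In these 4 pairs the array values of the difference did not overlap between the groups, which is what that smallest p means. Over all single genes the DTP arrays lay wholly above for 23.9% and wholly below for 29.8%. For COX8C minus COX8A it was 0.17 (exact permutation p = 0.20) and for COX6A2 minus COX6A1 0.01 (exact permutation p = 1).

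**Figure D3:**
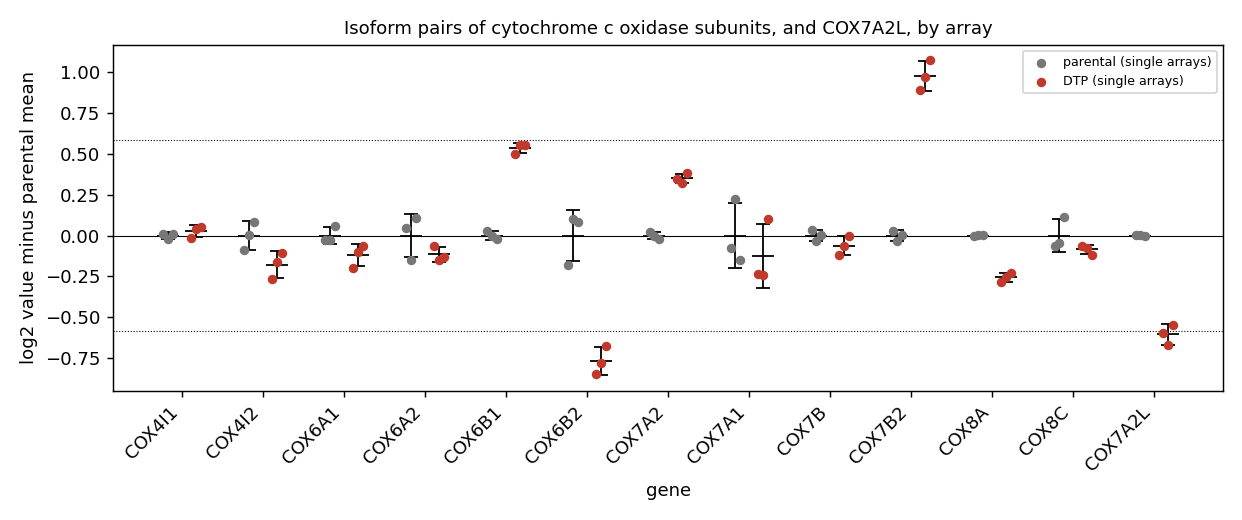
Single-array log2 values of the 6 isoform pairs of complex IV and of COX7A2L, minus the parental mean of the gene (y axis), with group means and ± 1 SD (n = 3 arrays per group). Dotted lines mark 1.5-fold. The DTP points of COX7B2 lie near 0.98 above the parental mean and those of COX6B2 near -0.77, while COX7B lies close to 0 and COX6B1 at 0.54.

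In ATP synthase, 4 of 18 members rose, 2 fell and 12 did not pass, with a median of 0.09. With centring on ribosomal protein genes 12 rose and 2 fell, and on spike-ins 6 rose and none fell. The alpha and beta subunits, which form the catalytic ring, did not pass. ATP5F1A (alpha) measured 13.84, 13.76 and 13.76 in parental cells and 13.72, 13.67 and 13.75 in DTPs, a change of -0.07 ± 0.07 with a 95% interval of -0.22 to 0.07. ATP5F1B (beta) measured 13.51, 13.56 and 13.59 against 13.42, 13.41 and 13.49, a change of -0.12 ± 0.07 with an interval of -0.26 to 0.03. The delta subunit of the central stalk, ATP5F1D, measured 10.79, 11.00 and 10.89 in parental cells and 10.46, 10.55 and 10.52 in DTPs, a fall of -0.39 ± 0.07 (limma adjusted p = 8.06e-04), and both of its probe sets fell. The epsilon subunit of that stalk, ATP5F1E, rose by 0.20 ± 0.07.

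ATP5F1C, the gamma subunit that turns inside the ring, was called higher, but its probe sets disagreed. The probe set taken for the gene measured 6.56, 6.51 and 6.55 in parental cells and 7.28, 7.43 and 7.32 in DTPs, a rise of 0.80 ± 0.07 (limma adjusted p = 7.82e-07), from below the array-wide median of 7.29 to about that value. It was preferred because the other 3 have the suffix _x_at, which marks probes that may bind more than 1 transcript. Those 3, with parental means of 11.90 to 12.80, gave changes of -0.01, -0.0032 and 0.02. With the brightest of all probe sets in its place the change of ATP5F1C was -0.0032 (limma adjusted p = 0.977).

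The membrane ring of ATP synthase is built from copies of 1 protein that is encoded by 3 genes, ATP5MC1 to ATP5MC3. ATP5MC1 rose, from 10.34, 10.29 and 10.33 to 10.55, 10.54 and 10.68 (0.27 ± 0.07, limma adjusted p = 0.00635). ATP5MC2 fell, from 12.31, 12.28 and 12.34 to 11.77, 11.93 and 11.95 (-0.43 ± 0.07, limma adjusted p = 2.91e-04), and both of its probe sets fell. ATP5MC3 measured 13.88, 13.90 and 13.86 in parental cells and 14.03, 14.06 and 14.03 in DTPs, a difference of 0.16 ± 0.06 without overlap that missed the threshold (limma adjusted p = 0.0535). ATP5MK, a small membrane subunit, rose by 0.24 ± 0.07. ATP5IF1, the protein that inhibits ATP hydrolysis by the enzyme, measured 10.47, 10.40 and 10.37 in parental cells and 10.52, 10.58 and 10.59 in DTPs, a difference of 0.15 ± 0.07 that did not pass (limma adjusted p = 0.0884). The other members of the complex lay between -0.04 and 0.14 by the probe set taken. For ATP5MG that was the dimmest of 4 and did not pass. Its 3 _x_at probe sets rose, by 0.20 to 0.22, when adjusted over all probe sets.

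Of the 150 probe sets of the members, 34 rose, beside 18.6% of all 54613 probe sets, and 16 fell, beside 20.1%, when adjusted over all probe sets, and 100 did not pass. No member had probe sets that rose and others that fell. Among the 44 members with more than 1 probe set, 23 had changes of both signs. Apart from ATP5F1C, 3 members had a single probe set called higher beside others that did not pass, and they were picked out after their values were seen. A probe set of ATP5IF1 rose by 1.05 ± 0.08 from a parental mean of 7.46, while the other 2 gave -0.02 and 0.15. For UQCRC2 a probe set with a parental mean of 5.89 rose by 1.25 ± 0.09, and the other 2 gave -0.15 and -0.14. For COX4I1 a probe set with a parental mean of 7.88 rose by 0.72 ± 0.09, and the other 3 gave -0.04, 0.03 and 0.06. These calls would differ with another choice of probe set, and whether such probe sets read other transcripts of the same genes was not tested.

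**Figure D4:**
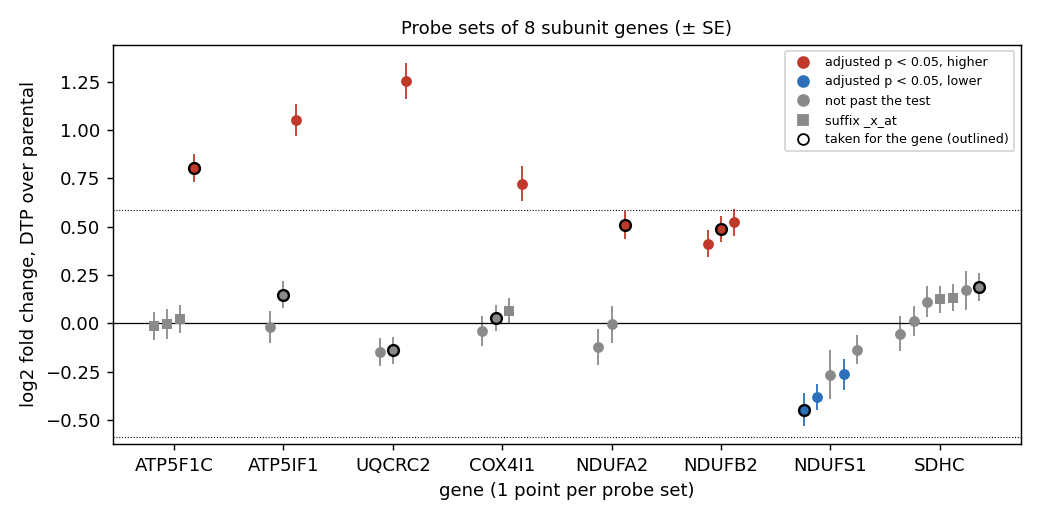
Log2 fold change, DTP over parental (y axis, ± 1 SE from limma over all probe sets), of each probe set of 8 members. Squares are _x_at probe sets, outlined points were taken for the gene, and dotted lines mark 1.5-fold. ATP5F1C, ATP5IF1, UQCRC2 and COX4I1 each have 1 probe set at 0.72 to 1.25 and the others near 0, whereas all 3 of NDUFB2 are above 0 and all 5 of NDUFS1 below.

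The subunits were set beside other mitochondrial genes, in lists chosen by function. Over all genes 20.4% rose and 24.0% fell, and 8.08% were called higher and 6.13% lower. Among the 75 mitochondrial ribosomal proteins, which translate the mitochondrially encoded subunits, 4 rose and 45 fell, with a median of -0.24, beside 20 and 11 of the 76 subunits. With centring on spike-ins 4 rose and 9 fell, with a median of -0.09. MRPS10 had the largest change of this list, from 11.74, 11.82 and 11.75 to 10.39, 10.39 and 10.65 (-1.29 ± 0.08, limma adjusted p = 5.07e-08). MRPL52 rose by 0.65 ± 0.07.

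Of 58 factors that assemble complexes I to V, 7 rose and 28 fell (median -0.19). With centring on ribosomal protein genes 13 rose and 16 fell, and on spike-ins 11 rose and 9 fell. COA6, a copper-handling factor of complex IV, measured 11.26, 11.28 and 11.31 in parental cells and 10.32, 10.30 and 10.48 in DTPs, a fall of -0.92 ± 0.07 (limma adjusted p = 3.36e-07). NDUFAF2, an assembly factor of complex I, fell by 0.85 on the log2 scale, SDHAF3 of complex II by 0.74 and ECSIT of complex I by 0.71, each without overlap between the groups. PET100, a chaperone of complex IV, was the 1 factor called higher (0.64 ± 0.07).

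Some electron carriers fell. Of 12 subunits and carriers outside the symbol rule, none rose and 5 fell (median -0.09, but 0.02 with centring on ribosomal protein genes and 0.06 with centring on spike-ins). Cytochrome c, CYCS, measured 13.71, 13.73 and 13.68 in parental cells and 13.33, 13.26 and 13.35 in DTPs, a fall of -0.39 ± 0.06 (limma adjusted p = 2.84e-04). Cytochrome c1 of complex III, CYC1, measured 13.06, 12.97 and 13.06 against 12.58, 12.57 and 12.74 (-0.40 ± 0.07, limma adjusted p = 6.20e-04). Neither value passed with centring on spike-ins, where none of these 12 genes fell. Of 13 genes of coenzyme Q synthesis, which makes ubiquinone, none rose and 8 fell (median -0.30), or 3 with centring on spike-ins. COQ8A was the 1 called lower, from 10.13, 10.11 and 10.03 to 9.39, 9.54 and 9.52 (-0.61 ± 0.07, 1.52-fold).

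Of 21 regulators of mitochondrial biogenesis, 3 rose and 12 fell (median -0.26), or 6 and 5 with centring on spike-ins. The regulator whose motif core is shown above, NRF1, measured 8.95, 8.99 and 9.02 in parental cells and 8.22, 8.13 and 8.33 in DTPs, a fall of -0.76 ± 0.07 or 1.69-fold (limma adjusted p = 1.99e-06). GABPB1, which pairs with GABPA to form GABP, measured 10.13, 10.15 and 10.20 against 9.37, 9.33 and 9.61, a fall of -0.72 ± 0.08 (limma adjusted p = 1.04e-05), and GABPA had a difference of -0.04 that did not pass. YY1 fell by 0.35 on the log2 scale (limma adjusted p = 0.00122). NRIP1, a corepressor of nuclear receptors, fell by 1.22 on the log2 scale and TWNK, the helicase of mitochondrial DNA, by 0.62. Whether these levels bear on the subunits was not tested.

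Of 25 genes of the tricarboxylic acid cycle and pyruvate entry, 3 rose and 7 fell (median -0.10, but 0.02 with centring on ribosomal protein genes and 0.05 on spike-ins). Of these genes 40% passed, beside 44.5% of all genes. The 3 called were all lower, where 6.13% of all genes were called. They were PDP1 (-1.47 ± 0.07), a phosphatase that activates pyruvate dehydrogenase, PDK1 (-0.81 ± 0.08), a kinase that inhibits it, and pyruvate carboxylase, PC (-0.79 ± 0.07). Of 29 genes of mitochondrial import and channels, 4 rose and 13 fell (median -0.16), or 5 and 8 with centring on spike-ins. TIMM44 (-1.33 ± 0.09), HSPA9 (-1.03 ± 0.08) and TIMM9 (-0.91 ± 0.08), all parts of import across or into the inner membrane, fell, and SLC25A4, an ADP/ATP carrier, rose from 8.99, 8.83 and 9.07 to 9.85, 9.83 and 9.87. Of 5 uncoupling proteins, 1 rose, SLC25A27 (0.21 ± 0.08, limma adjusted p = 0.0423), which was under the array-wide median in both groups.

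**Figure D5:**
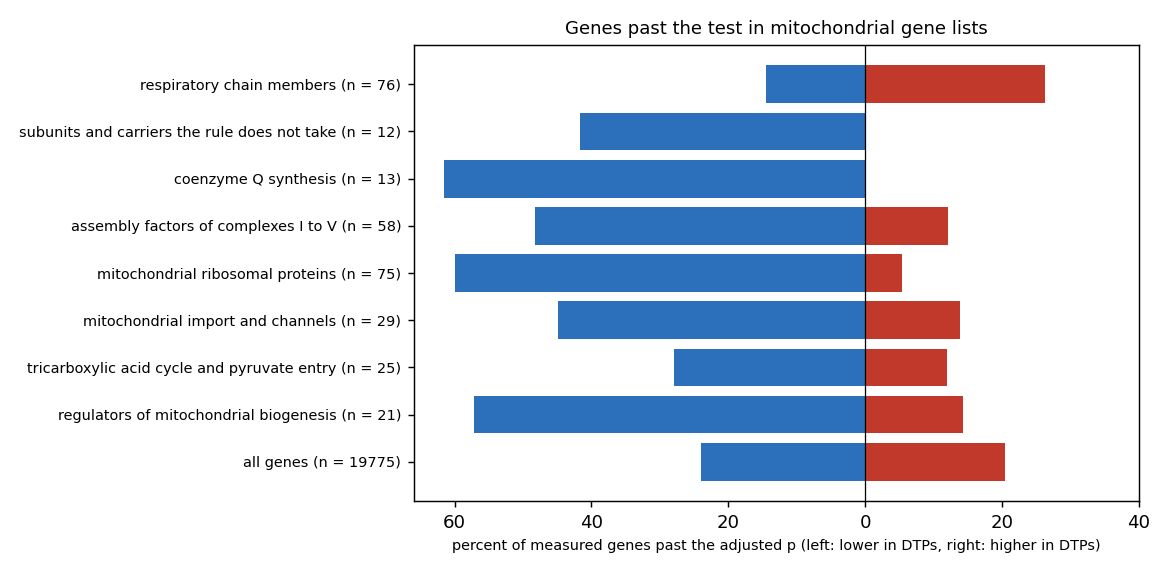
Percent of the measured genes of each list that fell (bars to the left) or rose (bars to the right) in DTPs at a limma adjusted p under 0.05, with the number of genes in brackets and all 19775 genes as the lowest bar. The subunits show 26.3% higher and 14.5% lower, and of the 75 mitochondrial ribosomal proteins 45 fell and 4 rose.

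The arrays were alike, with medians of 7.27 to 7.32, and correlations over all probe sets of 0.997 to 0.998 within groups and 0.970 to 0.975 across them. The log2 difference of 3′ and 5′ control probe sets, a sign of RNA integrity, was lower in every DTP array, by -0.02 for GAPDH and -0.11 for beta-actin (exact permutation p = 0.10 for each, the smallest possible), and its part in the results was not tested. None of 6 epithelial markers was called, and their mean lay at 12.16 to 12.22 in parental arrays and 12.30 to 12.34 in DTP arrays. KRT8 (0.45 ± 0.07) and KRT19 (0.36 ± 0.06) rose, EPCAM fell (-0.19 ± 0.07), and the other 3 did not pass. Of 6 fibroblast markers 1 was called, COL1A1, higher in DTPs by 2.67 ± 0.10, and 3 were under the array-wide median in both groups. COL1A2 fell (-0.26 ± 0.09), and the other 4 did not pass. The mean of the 6 lay at 6.90 to 6.98 in parental and 7.27 to 7.44 in DTP arrays. Of 4 blood markers none was called, but CD14 rose (0.34 ± 0.08) at values under the array-wide median in both groups. Of 3 endothelial markers PECAM1 was lower by -0.69 ± 0.10. The part of these markers in the results was not tested.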

How the data were processed

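Total RNA of PC9 cells was hybridised to 6 Affymetrix U133 Plus 2.0 arrays. The authors, as the labels and methods state, summarised probe sets as log2 values by RMA (affy package, versions not given in the sources used here) with quantile normalization, which hides a change of total mRNA per cell. RMA gives no detection call, and folds of dim probe sets are understated. The deposited log2 values were used unchanged. Of 54675 probe sets, 62 controls were left out. Of the remaining 54613, 41091 have 1 gene symbol in the platform annotation, 1801 several and 11721 none. Each of 19775 genes took its brightest probe set without the suffix _x_at, where it had one. Groups were compared with limma 3.58.1 (R 4.3.3, lmFit and eBayes, two-sided) over all genes and over all probe sets, with Benjamini-Hochberg adjustment, after tests on simulated data. Precision is limited by having 3 arrays in each group. No scan date or batch was used here.

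Genes named were, by rule, all called members, up to 3 members past the test with the largest change per complex, the core subunits of complex I and of the ATP synthase ring, complex II, the isoform pairs and ring genes, COXFA4, COX7A2L and ATP5IF1, and up to 4 called genes of each other list. Other members are named to account for those past the test. Members and lists were chosen with earlier results of these data known. Alternatives were replicate blocks, leaving out arrays, other scalings, filters, probe set choices, variance models, thresholds and the plain t-test that the methods name for other measurements. Promoter motifs were searched with Python 3.11.15 in the RefSeq table, and figures were drawn with matplotlib 3.10.9.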

Additional observations from a re-analysis of the deposited data

How the results depend on the processing

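Of 154 median and count comparisons with an alternative, 121 stayed near the main value. They include medians under the replicate block, which a balanced design leaves unchanged, so those results were fixed in advance. Of 510 comparisons for the named members, 461 kept their side of the threshold. Direction was counted only for members that passed in the main fit. Some members that did not pass changed sign between settings, such as ATP5F1A (-0.15 to 0.07) and COX7B (-0.09 to 0.09). Centring on cytosolic ribosomal protein genes, on spike-ins and cyclic loess moved the median of all members to 0.19, 0.22 and 0.12, that of complex I to 0.23, 0.26 and 0.16 and that of complex III to 0.15, 0.18 and 0.092. The median of complex IV became 0.032, 0.063 and -0.016, so its sign turned with both centrings. The centrings gave 0.24 and 0.27 for complex II and 0.20 and 0.23 for complex V. With the mean of all probe sets complex III had 0.10. With centring on ribosomal protein genes 39 members rose, 6 were called higher and 1 lower. With centring on spike-ins 5 fell, 7 were called higher and 1 lower. Cyclic loess left 1 called lower. Leaving out dim probe sets, taking the brightest or averaging probe sets left 1 called higher each, and in the first and second of these ATP5F1C was at -0.0032. A fold over 1.2 gave 14 higher and 8 lower, and a fold over 2 gave 0 and 0 by limma at any p, since the largest fold was 1.97.

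Leaving out 1 array at a time gave medians of 0.03 to 0.10 for all members, 0.073 (without DTP array 3) to 0.13 for complex I, 0.08 to 0.16 for complex II, 0.02 to 0.04 for complex III, -0.09 to -0.06 for complex IV and 0.06 to 0.12 for complex V. It gave 16 to 20 members higher and 9 to 14 lower, with 2 called higher each time and 1 or 2 called lower. Same-numbered arrays correlated at -0.12, 0.02 and -0.06 in their deviations from the group means, and differently numbered ones at -0.07 to 0.15. With 3 arrays per group these values cannot show whether numbers 1 to 3 pair the arrays. With the number as a replicate block 18 members rose and 9 fell, 2 and 2 were called, and NDUFA7 (adjusted p = 0.051), NDUFV1 (0.059), NDUFB7 (0.055) and SDHC (0.068) were lost. Of the 31 members past the test, 17 passed in all 16 alternatives, and these 4 were the least stable, past it in 7, 7, 8 and 8 of the 16. COX7A2L lost its call as given beside it. The causes of these differences were not tested. Signal near background limits COX7A1, COX8C and ATP5MF.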
